A study of Mus musculus with 30 samples.

Results

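Expression in regenerating mouse digit tips was compared between 14 d and 7 d after amputation. Every library of these 2 time points was used, 3 mice at 14 d and 6 mice at 7 d, of the 30 mice sequenced at 9 time points. All were adult male C57Bl/6 mice, 9 to 10 weeks old, with at most 33% of the distal phalanx (P3) of hindlimb digit 3 removed and the skin wound left to heal unsutured. Each library came from 1 mouse, and the labels of the 14 d and 7 d mice differed in the time of collection and, in the title, in a date, the foot and an Amp number with a tag. What that number marks is not given, and it entered no fit. The 14 d replicates 2 and 3 shared one such number, and so did the 7 d replicates 1 and 2. At 14 d, 1 mouse carried a title date in July 2015 and 2 in December 2015. At 7 d, 2 carried a date in July 2015 and 4 in November 2015, and what the date marks is not given. The July dates are called the earlier campaign here and the November and December dates the later campaign. The 7 d replicates 3, 4 and 6 were left feet, and all other mice of the series were right feet. These left-foot mice were all of the later campaign, so leaving them out also changes the share of the campaigns at 7 d.

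The mouse digit tip regrows bone after amputation through the last phalanx. Osteoclasts, large multinucleate cells of the myeloid lineage, attach to the stump bone through integrins, acidify the space beneath them and digest the matrix with proteases such as cathepsin K. Osteoblasts then lay down new bone, first as type I collagen that is folded, hydroxylated and cross-linked, and later as mineral bound by proteins such as osteocalcin. The comparison of 14 d with 7 d asks which genes differ between these times. The labels give the time and no phase of the process.

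Of 20321 genes, 13793 had enough counts to be tested. The libraries held 5698534 to 11558333 expected counts at 14 d and 3502002 to 8276521 at 7 d. The samples held RNA of skin as well as bone: the summed TPM (a level per transcript length) of 13 keratinocyte genes was 44738 to 54138 at 14 d and 50945 to 78940 at 7 d, and that of 17 bone matrix genes 18750 to 21319 and 5847 to 10421. The bone matrix list holds type I collagen and Sparc, which are not confined to bone, so its sum is no measure of bone RNA alone. In such bulk samples, fewer cells of a type and less RNA per cell cannot be told apart. The 7 d replicate 3 stood apart, with a count in 12191 genes against 13937 to 14830 in the other 7 d mice and a median correlation of 0.902 with the other 8 mice across genes. All levels below are CPM, counts scaled to library size after TMM normalization, unless TPM is named.

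At 14 d, 49 genes were higher and 11 lower than at 7 d (edgeR quasi-likelihood test, Benjamini-Hochberg adjusted p under 0.05, with log2FC the log2 fold change of 14 d over 7 d and SE its standard error). These are 0.355% and 0.0798% of the genes tested, or 0.435% together. The higher set included osteocalcins, type I and type XI collagen, the osteoblast transcription factor Sp7 and enzymes that process collagen. The lower set included the cytokine Lif, which had the largest fall, and 3 genes of bone resorption, the integrin subunit Itgb3, the protease Ctsk and the sorting nexin Snx10. Among the 60 genes, 44 of the 49 and 10 of the 11 differed by at least 2-fold. The lowest 14 d mouse exceeded the highest 7 d mouse in 49 of the 49 higher genes, and the reverse held in 10 of the 11 lower genes. Without overlap, 4.01% of all tested genes were above and 1.75% below. In both campaigns taken singly, all 60 genes kept the sign of their difference. For the genes without overlap this sign was fixed in advance, so it is no separate support.

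How many genes passed depended on the mice and the fit. With campaign as a covariate 274 genes passed, all of the 60 among them, and in a fit of the 9 mice alone 15 passed, 13 of the 60 among them. DESeq2 called 183 genes, 54.1% of them higher, against 81.7% higher in edgeR's 60. Leaving out a 14 d mouse gave 21 (replicate 1), 24 (replicate 2) and 21 (replicate 3) genes. Leaving out 7 d replicate 1, 2 or 5 gave 138, 160 and 38 genes. Of the 60, 13 passed in all 9 fits that left out 1 mouse: Bglap2, Col11a2, Itga10, Tmem119, Sp7, Cthrc1, Lif, Itgb3, Snx10, Col11a1, Ppic, Sgms2 and Col1a1.

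**Figure D1:**
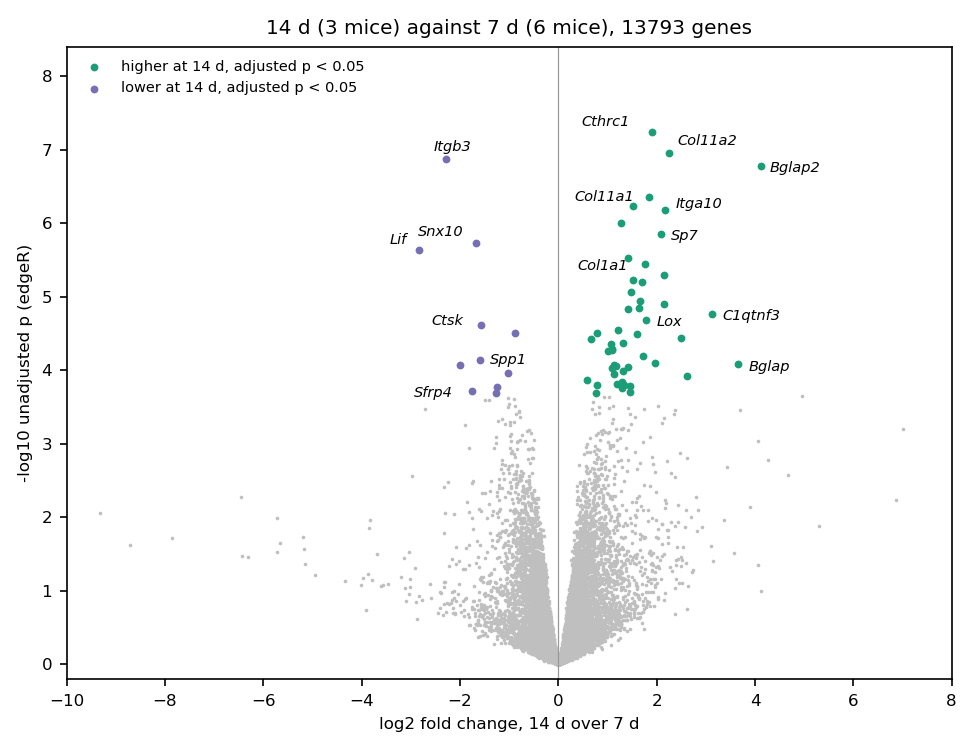
Log2 fold change of 14 d over 7 d (horizontal) against -log10 of the unadjusted p from edgeR (vertical) for 13793 genes, each a point. The 49 genes with adjusted p under 0.05 that were higher at 14 d lie right of 0 and the 11 lower ones left of it, with Bglap2 farthest right among them and Lif farthest left.

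Promoters are shown for 3 of the bone genes that passed. The osteocalcin gene Bglap was higher at 14 d, and the osteopontin gene Spp1 and the cathepsin K gene Ctsk were lower. None of the 3 kept its call in all 9 fits that left out 1 mouse. Each line gives the 250 bases before the transcription start in GRCm38.p6, 5′ to 3′ on the strand of the gene, from RefSeq. Capitals mark TGTGGT or its reverse complement ACCACA, the core letters bound by Runx factors, which control osteoblast genes. Bglap lies on the minus strand (chr3:88384467-88384716), Spp1 on the plus strand (chr5:104434861-104435110, the first of 2 starts listed) and Ctsk on the plus strand (chr3:95498960-95499209).
Bglap: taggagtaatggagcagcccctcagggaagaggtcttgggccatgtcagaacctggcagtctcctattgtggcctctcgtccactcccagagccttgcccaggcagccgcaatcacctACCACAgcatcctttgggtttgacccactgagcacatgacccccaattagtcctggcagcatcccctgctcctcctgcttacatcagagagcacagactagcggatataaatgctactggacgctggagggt
Spp1: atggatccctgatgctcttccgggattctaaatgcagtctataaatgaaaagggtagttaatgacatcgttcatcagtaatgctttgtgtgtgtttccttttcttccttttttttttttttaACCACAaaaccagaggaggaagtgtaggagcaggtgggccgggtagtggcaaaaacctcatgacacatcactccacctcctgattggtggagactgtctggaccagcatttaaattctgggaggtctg
Ctsk: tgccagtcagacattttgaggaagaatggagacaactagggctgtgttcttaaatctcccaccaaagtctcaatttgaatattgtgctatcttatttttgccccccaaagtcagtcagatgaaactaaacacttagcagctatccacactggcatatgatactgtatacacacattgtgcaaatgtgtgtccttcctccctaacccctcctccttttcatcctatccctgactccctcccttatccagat

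The match begins 132 bases before the start in Bglap and 128 bases before it in Spp1, and Ctsk has none in this window. Bglap and Spp1 thus hold the same letters at a similar distance and differed between 14 d and 7 d in opposite directions. Of the 60 genes, 37 had a promoter in the table, and 8 of these held the letters on either strand (6 of 30 higher and 2 of 7 lower genes). Over all 27025 genes of the table the share was 15.9%, and the count is a description that shows no binding.

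Osteocalcins, type I collagen and Sparc were higher at 14 d. Of 17 genes of bone matrix and mineral, 6 rose, 1 fell and 10 did not pass, with a median log2FC of 1.17 against 0.0085 over all genes. At an unadjusted p under 0.05, 13 of the 17 were higher, where 6.89% of all genes were. This list and those below were chosen with earlier results of these data known, so their shares are no separate support. The 6 that rose were the chains of type I collagen, Col1a1 and Col1a2, the collagen-binding Sparc (osteonectin), and the osteocalcin genes Bglap, Bglap2 and Bglap3, which encode a small calcium-binding protein made by mature osteoblasts.

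Bglap2 (chr3:88377736-88378699, minus strand) had 37.8, 34.9 and 18.8 CPM in the 3 mice at 14 d. At 7 d it had 0 CPM in the lowest mouse, a median of 1.71 and 4.43 in the highest. Every 14 d mouse was thus more than 4 times above the highest 7 d mouse. Its log2FC was 4.13 (SE 0.59, edgeR adjusted p = 0.000565), and 3.84 (earlier campaign) and 3.64 (later campaign) on the log2(CPM + 1) scale. At 0 h, right after amputation, the mean was 15.4 CPM, and at 21 d it was 11.4 CPM. In the fit of the 9 mice alone its adjusted p was 0.0651.

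The neighbouring Bglap (chr3:88383501-88384464) had 24.5, 17.0 and 6.41 CPM at 14 d. At 7 d the lowest mouse had 0 CPM, the median was 0.597 and the highest mouse had 3.17. Bglap rose by a log2FC of 3.66 (SE 0.80, edgeR adjusted p = 0.0285). The call was lost without 14 d replicate 1 or 2 and without 7 d replicate 5 or 6, with an adjusted p of up to 0.243. These genes are close copies: of all stretches of 65 bases, the read length, 80.3% in Bglap2 and 52.7% in Bglap occur in another gene, so their single values are uncertain. Added up, Bglap and Bglap2 had 62.3, 51.9 and 25.2 CPM at 14 d and 0.128 to 5.55 CPM at 7 d. Their mean was 46.5 ± 19.1 CPM (SD, n = 3) against 2.98 ± 1.89 (SD, n = 6), a ratio of 15.6. For Bglap3, which shares 7.6% of its stretches, the 14 d mice had 16.1, 18.3 and 9.10 CPM and the 7 d mice 1.80 to 6.19 with a median of 2.73. Bglap3 rose by a log2FC of 2.16 (SE 0.41, edgeR adjusted p = 0.00919), and not without 14 d replicate 1 or 2, where its adjusted p reached 0.0925.

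Col1a1 (chr11:94936224-94953042, plus strand), the main chain of bone collagen, had 18885, 15791 and 17832 CPM at 14 d. The 7 d mice had from 3567 to 6327 CPM, with a median of 5368. The groups stood far apart, and the log2FC was 1.75 (SE 0.31, edgeR adjusted p = 0.0038). The adjusted p was 0.0658 when the left-foot mice were left out. Col1a2, its partner chain, had 15423, 14046 and 16233 CPM at 14 d against 3259 to 6529 (median 4949) at 7 d. Its log2FC of 1.60 (SE 0.32, edgeR adjusted p = 0.0155) was of similar size, and the call was lost whichever 14 d mouse was left out, with an adjusted p of up to 0.124. Sparc had 2861, 4175 and 4489 CPM at 14 d and 1244 to 2692 (median 1634) at 7 d, with a log2FC of 1.17 (edgeR adjusted p = 0.0285). The lowest 14 d mouse of Sparc was just above the highest 7 d mouse, and its call was lost without 14 d replicate 2 or 3 or 7 d replicate 3, 5 or 6 (adjusted p up to 0.243).

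Spp1 (osteopontin), a matrix protein that osteoclasts also make, was the member that fell. Its levels were 308, 153 and 208 CPM at 14 d against a lowest of 324, a median of 563 and a highest of 1095 at 7 d. The 14 d replicate 1 lay just under the lowest 7 d mouse. Spp1 had a log2FC of -1.60 (SE 0.34, edgeR adjusted p = 0.0267), and its call was lost without 14 d replicate 2 or 3 (adjusted p up to 0.2).

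The other 10 members of the bone matrix list did not pass the test. Alpl, the alkaline phosphatase that frees phosphate for mineral, had 159, 112 and 148 CPM at 14 d and 45.8 to 66.6 (median 56.4) at 7 d, with no overlap. The log2FC of Alpl was 1.31 (edgeR adjusted p = 0.0809), and 5 of 13 alternative fits called it. Phospho1, a phosphatase of mineralizing vesicles, had a log2FC of 1.03 (adjusted p = 0.0845), Pth1r, the parathyroid hormone receptor, 1.1 (0.0678), and Ibsp (bone sialoprotein) 1.03 (0.284) in the same edgeR test. With campaign as a covariate, Alpl (adjusted p = 0.0296), Phospho1 (0.0113) and Pth1r (0.0201) passed, and Ibsp did not (0.0842). Ifitm5, a membrane protein of mineralizing osteoblasts, had 12, 22 and 27 counts in the 14 d mice and 0 in all 6 mice at 7 d. Against a floor of 3 counts over the 7 d group, Ifitm5 was at least 26.9-fold higher at 14 d, with an edgeR adjusted p of 0.0809, or 0.0383 with campaign as a covariate. The floor covers counting error only.

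**Figure D2:**
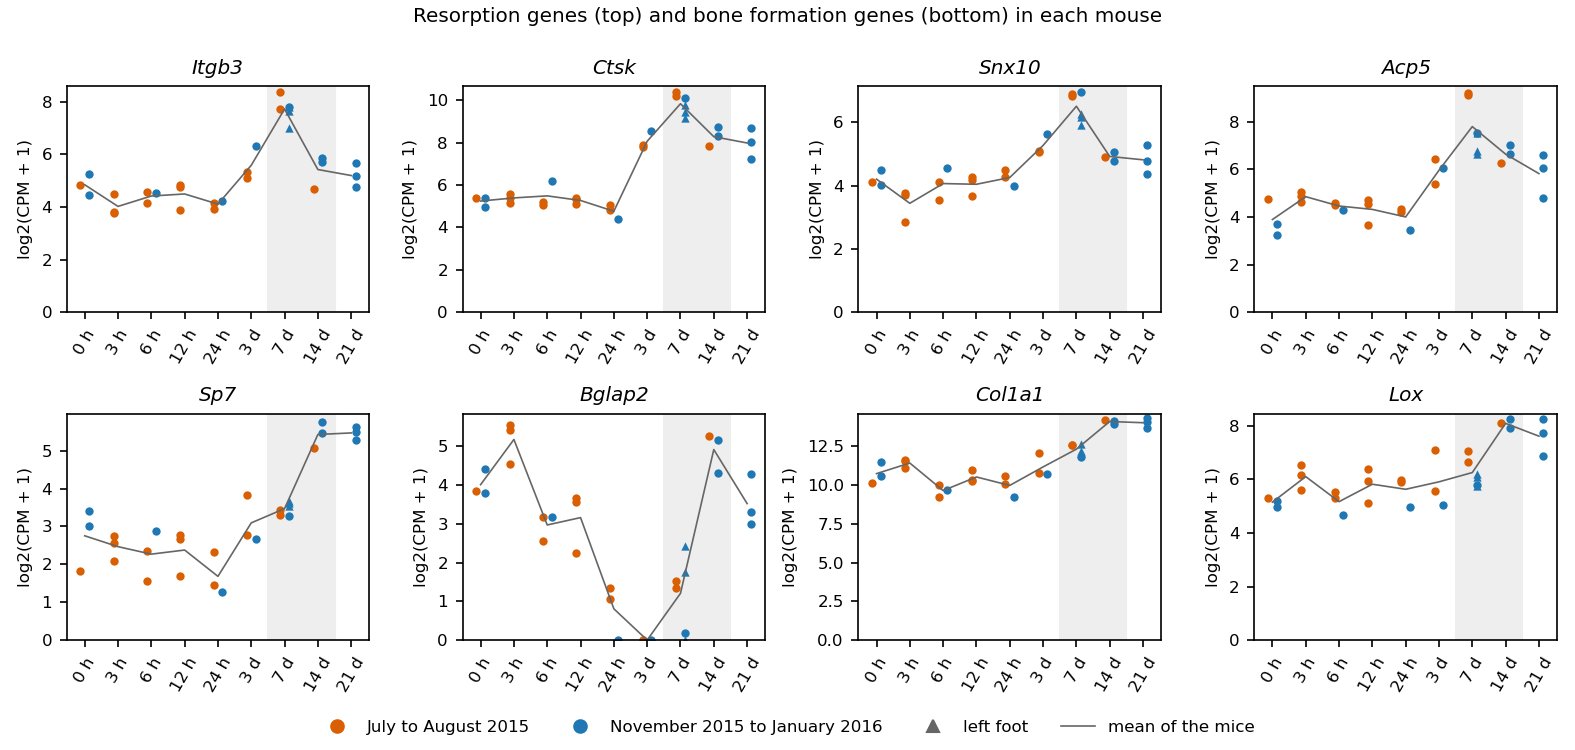
Level of 8 genes as log2(CPM + 1) in each mouse over the 9 time points, with the resorption genes Itgb3, Ctsk, Snx10 and Acp5 above and the formation genes Sp7, Bglap2, Col1a1 and Lox below. Points are mice, coloured by campaign, triangles are left feet, lines join the means, and the shaded band marks 7 d and 14 d. There the means of the upper genes step down and those of the lower genes step up. Acp5 did not pass, and its 14 d mice overlapped with 7 d mice of the later campaign.

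Sp7 was the only gene that passed among 12 osteoblast transcription factors, whose median log2FC was 0.40, and with campaign as a covariate 2 passed. Sp7 (osterix; chr15:102356606-102367182, minus strand) is required for osteoblasts to form. It had 32.3, 52.8 and 43.4 CPM at 14 d, and at 7 d a lowest of 8.73, a median of 10.2 and a highest of 11.6. The 7 d mice were close together, and all 14 d mice lay well above them. The log2FC of Sp7 was 2.08 (SE 0.34, edgeR adjusted p = 0.00213), with 1.69 in the earlier campaign and 2.09 in the later. The mean was 6.43 CPM at 0 h and 43.4 at 21 d. Runx2, which acts upstream of Sp7, had 54.9, 26.6 and 28.3 CPM at 14 d and 11.4 to 39.2 at 7 d, so that the groups overlapped. The log2FC of Runx2 was 0.69 (edgeR adjusted p = 0.401). For Dlx5, a homeobox factor of osteoblasts, it was 0.36 (adjusted p = 0.557). The difference between Sp7 and these genes was itself not tested.

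Of 25 genes of collagen folding and cross-linking, 5 rose, none fell and 20 did not pass, where 0.355% of all genes rose. The list holds enzymes and chaperones and also the transcription factor Creb3l1, and its median log2FC was 0.51. At an unadjusted p under 0.05, 13 of the 25 were higher, against 6.89% of all genes. With campaign as a covariate 9 rose and 1 fell, while with the 9 mice alone, without the left-foot mice, and without 14 d replicate 1 or 2 only 1 rose. Without 14 d replicate 3 none did. The summed TPM of the list was 2423 to 2832 at 14 d and 1528 to 2250 at 7 d, with the highest 7 d values in the 2 mice of the earlier campaign.

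Lox, the lysyl oxidase that starts cross-links between collagen molecules, had 271, 239 and 307 CPM at 14 d against 52.6 to 130 (median 69.8) at 7 d. Lox rose by a log2FC of 1.78 (SE 0.35, edgeR adjusted p = 0.0123), and the call was lost without 14 d replicate 1 or 3 (up to 0.107) and without the left-foot mice (0.2). Creb3l1, a factor of the endoplasmic reticulum that turns on type I collagen, had 34.6, 48.8 and 53.8 CPM at 14 d and 6.46 to 19.9 (median 17.3) at 7 d. For Creb3l1 the log2FC was 1.66 (edgeR adjusted p = 0.00881), and the call was lost without 14 d replicate 2 or 3 (up to 0.115). Both genes had no 14 d mouse within the 7 d range.

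Plod2, which hydroxylates lysines at the collagen ends, rose by a log2FC of 1.32 (edgeR adjusted p = 0.0186), and Fkbp10, a prolyl isomerase that works with it, by 1.1 (adjusted p = 0.0191). The collagen chaperone Serpinh1 (Hsp47) had 260, 257 and 330 CPM at 14 d and 41.7 to 188 (median 109) at 7 d, a log2FC of 1.30 (edgeR adjusted p = 0.0434). Each of these calls was lost whichever 14 d mouse was left out, with an adjusted p of up to 0.2, 0.172 and 0.299, and that of Serpinh1 also without 7 d replicate 3, 4, 5 or 6. For Serpinh1 the difference in log2(CPM + 1) was 0.50 in the earlier campaign and 1.97 in the later one. Bmp1, which trims procollagen, had a log2FC of 0.82 (adjusted p = 0.0584), Loxl2 of 0.89 (0.0846) and P4ha1 of 0.86 (0.124), none of which passed. With campaign as a covariate all 3 passed, with an edgeR adjusted p of 0.00747, 0.0383 and 0.0364. Of the genes that rose outside the lists, Sec23a, a coat protein of vesicles that leave the endoplasmic reticulum, had a log2FC of 1.09 (edgeR adjusted p = 0.0214), the cargo receptor Surf4 of 0.58 (0.0383) and Ssr2, part of the complex that takes in new secreted proteins, of 1.46 (0.042). All 3 lost the call whichever 14 d mouse was left out and without 7 d replicate 6, Surf4 and Ssr2 also without 7 d replicate 4 or 5 and Ssr2 without 7 d replicate 3, with adjusted p up to 0.161, 0.304 and 0.292.

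Other collagens were represented by type XI, V and XII chains. Col11a2 had 184, 225 and 193 CPM at 14 d and 19.0 to 71.7 (median 41.0) at 7 d, a log2FC of 2.26 (SE 0.32, edgeR adjusted p = 0.000565). Col11a1, which joins it in the same fibril collagen, had 480, 343 and 488 CPM against 73.2 to 162 (median 127), a log2FC of 1.84 (SE 0.28, adjusted p = 0.00121). Both were clear of the 7 d range and passed with each mouse left out. They were the only 2 of 16 cartilage matrix genes tested that passed, and the median of that list was -0.37. With campaign as a covariate 3 passed. Col2a1, the main cartilage collagen, had a mean of 8.44 CPM at 14 d and 18.1 at 7 d (edgeR adjusted p = 0.515), and Acan, the cartilage proteoglycan, 115 and 47.1 (adjusted p = 0.0809). Among 20 other collagen chains, Col12a1 (log2FC 1.33, adjusted p = 0.0312) and Col5a1 (1.19, 0.0408) rose, and the median was 0.44. Both lost the call without 14 d replicate 1 or 3 or 7 d replicate 3, 5 or 6, and Col5a1 also without 14 d replicate 2, with adjusted p up to 0.302 and 0.273.

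Of 20 genes of TGF-beta and provisional matrix, Thbs1 and Thbs2 rose, and the median was 0.37. Thbs2, a thrombospondin that binds matrix proteases, had 386, 226 and 316 CPM at 14 d and 82.0 to 127 (median 110) at 7 d, a log2FC of 1.51 (edgeR adjusted p = 0.00543). Thbs1, its relative that activates latent TGF-beta, had 560, 239 and 292 CPM against 95.8 to 210 (median 122), a log2FC of 1.43 (adjusted p = 0.0095). The highest value of each was 14 d replicate 1, the mouse of the earlier campaign, and without it the calls were lost (adjusted p up to 0.0924 and 0.296). For Thbs1 the difference in log2(CPM + 1) was 2.40 in the earlier and 0.86 in the later campaign.

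The osteoclast genes Itgb3, Ctsk and Snx10 were lower at 14 d. Of 20 genes of osteoclast formation and resorption tested, 3 fell, none rose and 17 did not pass, and 19 had a negative log2FC, with a median of -0.55. At an unadjusted p under 0.05, 9 of the 20 were lower, where 5.62% of all genes were. The summed TPM of the list was 1151, 1412 and 1774 in the 14 d mice. At 7 d the earlier campaign had 5778 and 5238, and the later one 2318, 2267, 3252 and 1909. All 14 d mice were below all 7 d mice, and still above the 345 to 488 of the 0 h mice. Without 14 d replicate 1 and 2 in turn, the call of Ctsk was lost, and the other 2 calls held in all 9 cases.

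Itgb3 (chr11:104608000-104670476, plus strand), the beta 3 integrin by which osteoclasts seal to bone, had 25.1, 51.1 and 57.5 CPM at 14 d. At 7 d its lowest mouse had 128, the median was 215 and the highest had 330. Its 0 h mean was 28.6 CPM, with the lowest 14 d mouse below that and the other 14 d mice above it. Itgb3 had a log2FC of -2.29 (SE 0.33, edgeR adjusted p = 0.000565), with -3.34 within the earlier and -1.78 within the later campaign. Itgb3, Cthrc1 and Sgms2 were the 3 genes that passed in all 13 alternative fits and all 9 fits without 1 mouse.

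Ctsk (chr3:95499256-95509362, plus strand), the protease that digests bone collagen, had 224, 315 and 418 CPM at 14 d. At 7 d it ranged from 567 to 1316 CPM with a median of 977. The groups did not overlap, and the 14 d mice stayed well above the 0 h mean of 37.3 CPM. Ctsk had a log2FC of -1.57 (SE 0.31, edgeR adjusted p = 0.014), and up to 0.172 without 14 d replicate 1 or 2. Snx10, a sorting nexin that osteoclasts need to resorb bone, had 29.0, 26.7 and 32.3 CPM at 14 d and 59.6 to 121 (median 94.2) at 7 d. Snx10 had a log2FC of -1.66 (SE 0.28, adjusted p = 0.00251).

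The other 17 genes of the list did not pass, and all but Traf6, a signal adaptor (log2FC 0.20), had a negative log2FC. Acp5, the tartrate-resistant acid phosphatase used to stain osteoclasts, had 75.8, 98.5 and 127 CPM at 14 d. At 7 d the 2 mice of the earlier campaign had 585 and 556 CPM, and the 4 of the later one 181, 98.2, 182 and 108. The later campaign thus overlapped with the 14 d mice. Acp5 had a log2FC of -1.50 (edgeR adjusted p = 0.185), with differences of -2.90 and -0.29 within the campaigns. It passed when the left-foot mice, all of the later campaign, were left out (edgeR adjusted p = 0.0225). With campaign as a covariate it did not pass (0.122). Mmp9, a gelatinase of osteoclasts, had a log2FC of -1.15 (adjusted p = 0.284), with -2.46 and -0.46 within the campaigns. For Atp6v0d2, a proton pump subunit, it was -1.58 (adjusted p = 0.228), with -3.01 and -0.54. Oscar (-2.03), Dcstamp (-1.37), Tnfrsf11a (-0.96) and Nfatc1 (-0.61), genes of osteoclast formation, did not pass either, although Tnfrsf11a did with campaign as a covariate (edgeR adjusted p = 0.0313). Car2, the carbonic anhydrase that supplies protons, had 145, 67.8 and 84.2 CPM at 14 d. In the earlier campaign its 7 d mice had 68.1 and 46.1 CPM, below the 14 d mouse, and in the later campaign 171, 161, 170 and 140, above both 14 d mice. The interaction of time with campaign for Car2 had an unadjusted p of 1.46e-05 and an adjusted p of 0.0846 in edgeR, the lowest of 13058 genes.

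Among the signals to osteoclasts, Tnfsf11 (RANKL) had 6.00, 10.7 and 21.1 CPM at 14 d and 7.39 to 26.9 (median 14.7) at 7 d. Tnfrsf11b (osteoprotegerin), the decoy receptor that blocks it, had 4.06, 10.2 and 16.1 CPM against 4.25 to 19.7 (median 6.11). The time points overlapped for both genes, and neither passed, with log2FC values of -0.32 (edgeR adjusted p = 0.843) and 0.29 (adjusted p = 0.869).

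**Figure D3:**
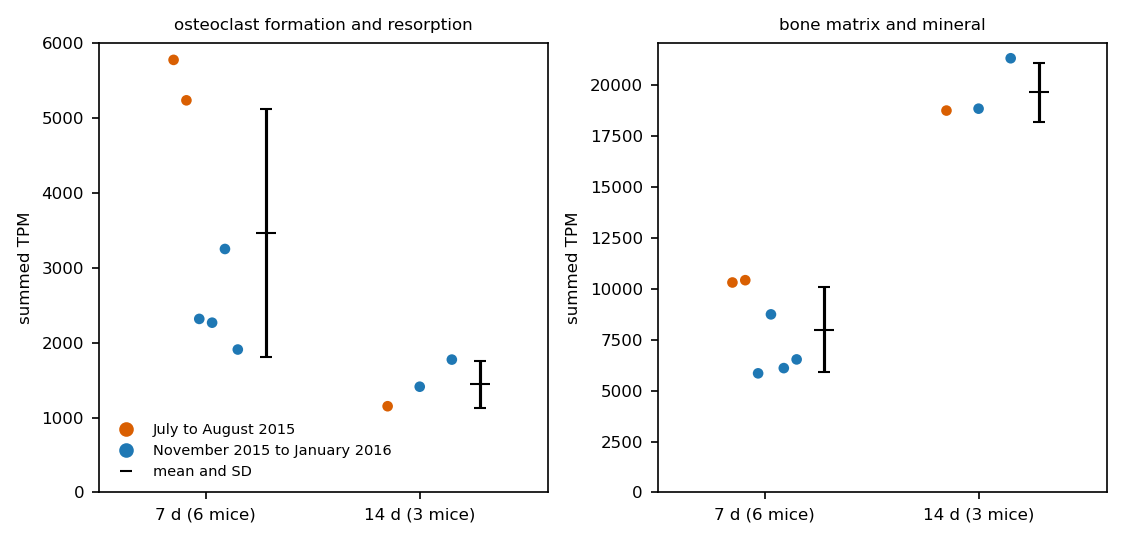
Summed TPM of 20 tested osteoclast genes with 2 low-count ones (left) and of 17 bone matrix genes (right) in each mouse, coloured by campaign, with the mean and SD of each time point as bars. The 14 d mice lie below all 7 d mice on the left and above all of them on the right, and the 2 earlier 7 d mice are the highest of their group in both panels. The sum on the right includes type I collagen, which is not confined to bone.

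The remaining genes that fell were outside the osteoclast list. Lif, a cytokine of the Il6 family, had 3.18, 5.66 and 7.36 CPM at 14 d and 9.04 to 64.2 (median 38.9) at 7 d. Lif had a log2FC of -2.84 (SE 0.48, edgeR adjusted p = 0.00291), and it passed with each mouse left out. Lif was the only called gene of 17 cytokines and chemokines tested. The median of that list, 0.10, ran from -0.269 without 14 d replicate 3 to 0.358 without 7 d replicate 5. Sfrp4, a secreted Wnt antagonist, had 7.59, 17.5 and 22 CPM against 21.7 to 105 (median 42.0) at 7 d, so that 1 mouse of each time overlapped. Its log2FC was -1.75 (adjusted p = 0.0455), with -3.45 and -0.72 within the campaigns, and the call was lost whichever 14 d mouse was left out and without 7 d replicate 1 or 5 (adjusted p up to 0.322). Slc37a2, a sugar phosphate transporter, fell by 1.26 on the log2 scale (edgeR adjusted p = 0.0465), and Gnptab, which tags enzymes for lysosomes, fell by 0.87 (0.0155). Kbtbd11, a Kelch and BTB domain protein, fell by 1.25 (0.042), and the epithelial genes Serpinb3c, a protease inhibitor, and Gsdmc, a gasdermin, by 2.0 (0.0285) and 1.02 (0.0323). All 5 lost the call without 14 d replicate 1 or 2, and all but Kbtbd11 without 14 d replicate 3. Of the 7 d mice, leaving out replicate 5 ended the call of all but Gnptab, replicate 6 that of Kbtbd11, Serpinb3c and Gsdmc, and replicate 3 that of Kbtbd11 and Gsdmc, and the adjusted p reached 0.126 (Gnptab) to 0.323 (Kbtbd11).

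C1qtnf3, a secreted C1q family protein, had 41.3, 9.57 and 37.3 CPM at 14 d and 0 to 6.03 (median 3.16) at 7 d, a log2FC of 3.12 (edgeR adjusted p = 0.0107, up to 0.117 without 14 d replicate 1 or 3). Cthrc1, a secreted protein of matrix-forming fibroblasts and osteoblasts, had 156, 116 and 156 CPM against 17.4 to 47.0 (median 40.2), a log2FC of 1.90 (SE 0.26, adjusted p = 0.000565). Sgms2, a sphingomyelin synthase, rose by 1.52 (adjusted p = 0.0013). Tmem119, a membrane protein of osteoblasts and microglia, rose by 2.14 on the log2 scale (edgeR adjusted p = 0.00491). Itga10, a collagen-binding integrin of skeletal cells, rose by 2.17 (0.0013), although 29.6% of its read-length stretches occur in another gene model. Slc13a5, a citrate transporter, rose by 2.50 (0.0169), and Mamdc2, a matrix protein, by 2.62 (0.0344). The last 2 lost the call whichever 14 d mouse was left out, with adjusted p up to 0.171 and 0.183, and Mamdc2 also without 7 d replicate 4 or 5.

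The other 16 genes that rose were Cgref1, Itm2a, Scarf2, Serpinf1, Cdh2, Ppic, AI597468, Lgals1, Mef2c, Gpc1, Galnt3, Otub2, Cd164, Camk1d, Llgl1 and Fam83h, with log2FC values from 0.67 (Fam83h) to 1.65 (Cgref1). They include the adhesion molecule Cdh2 (N-cadherin), the secreted Serpinf1 (PEDF), whose loss in humans gives brittle bones, and Mef2c, a transcription factor of chondrocytes and osteocytes. Mef2c had 79.1, 72.4 and 78 CPM at 14 d and 26.5 to 45.5 (median 32.9) at 7 d, with a log2FC of 1.13 (edgeR adjusted p = 0.0332). Serpinf1 had 105, 133 and 131 CPM at 14 d against 26.8 to 75.8 (median 48.3), with a log2FC of 1.35 (adjusted p = 0.0411). Both lost the call whichever 14 d mouse was left out and without 7 d replicate 3 or 5, and Serpinf1 also without 7 d replicate 6. Cdh2 had a log2FC of 1.31 (edgeR adjusted p = 0.0393), which went down to 0.71 (adjusted p up to 0.597) with 1 mouse left out, and its call was lost without 14 d replicate 1 or 3 or 7 d replicate 3, 5 or 6. Of the 16, Ppic alone passed with each mouse left out. The other 15 lost the call without 14 d replicate 1, and all of these but Itm2a without 14 d replicate 3. Without 14 d replicate 2 the call was lost for 10 of them, all but AI597468, Cgref1, Otub2, Itm2a and Cdh2. Leaving out 1 of the 7 d replicates 3 to 6 ended the call of Mef2c, Scarf2, Llgl1, Gpc1, Cd164, Lgals1, Serpinf1 and Cdh2 in at least 1 case.

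Lce1b, Lce1d, Lce1e and Lce1l, late cornified envelope genes of the outer shell of skin cells, and Cnfn, a further envelope protein, were among the 49. The Lce family was taken up after these values were seen, so its counts are no separate support. All 21 measured members had a positive log2FC, with a median of 1.10 against 0.0085 over all genes. Of the members 4 passed as higher, where 0.355% of all genes did, and 17 did not pass. Lce1l had 72.4, 130 and 128 CPM at 14 d and 13.1 to 48.9 (median 32.3) at 7 d, a log2FC of 1.70 (SE 0.31, edgeR adjusted p = 0.00543, up to 0.071 without 14 d replicate 2 or 3). Lce1b had 149, 332 and 239 CPM against 24.7 to 133 (median 46.3), a log2FC of 1.96 (adjusted p = 0.0285, up to 0.2 without 14 d replicate 2 or 3 or 7 d replicate 3, 4, 5 or 6). The same 6 mice decided the call of Lce1d, 14 d replicates 2 and 3 and 7 d replicates 5 and 6 that of Lce1e, and 14 d replicate 2 that of Cnfn (adjusted p up to 0.2, 0.2 and 0.0572). In Lce1b the 14 d mouse of the earlier campaign was 0.40 above its 7 d mice on the log2(CPM + 1) scale and those of the later campaign 3.01. From 3.63% (Lce1l) to 15.9% (Lce1e) of their read-length stretches were shared with other members. At 0 h the mean of Lce1b was 171 CPM and that of Lce1l 94.4. Of 13 keratinocyte genes none passed in edgeR (median -0.22, 2 at an unadjusted p under 0.05), and of 13 wound epidermis genes none (median 0.63, 5 at an unadjusted p under 0.05), where 12.5% of all genes were at that p. DESeq2 called 1 of each, and so did edgeR with campaign as a covariate, a lower keratinocyte gene and a higher wound epidermis gene. Of the fits with 1 mouse left out, 1 keratinocyte gene passed without 7 d replicate 1 or 2, and 1 wound epidermis gene without 7 d replicate 1, 3 or 4.

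Among markers of other cells, edgeR with time alone called no gene of 18 macrophage (median 0.01), 11 neutrophil (-0.43), 16 endothelial (-0.11) or 25 mitosis genes (0.29), while 5, 5, 0 and 4 of them had an unadjusted p under 0.05, against 12.5% of all genes, and DESeq2 called 1, 1, 0 and 1. With campaign as a covariate edgeR called 1 macrophage and 1 mitosis gene, both higher, and within the later campaign 2 of each, all higher but 1 mitosis gene. Without 7 d replicate 1 the neutrophil median was 0.205, over 9 genes tested there against 11 with all mice. The neutrophil granule genes Ltf, Ngp and Camp had no count in any mouse at 14 d and in 4 of the 6 mice at 7 d. The 7 d replicate 1 held 224, 173 and 86 counts of them and replicate 6 held 63, 0 and 17, so that their negative values rest on these 2 mice (edgeR adjusted p = 0.232, 0.318 and 0.3). The part of changing cell types in the differences above was not tested.

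**Figure D4:**
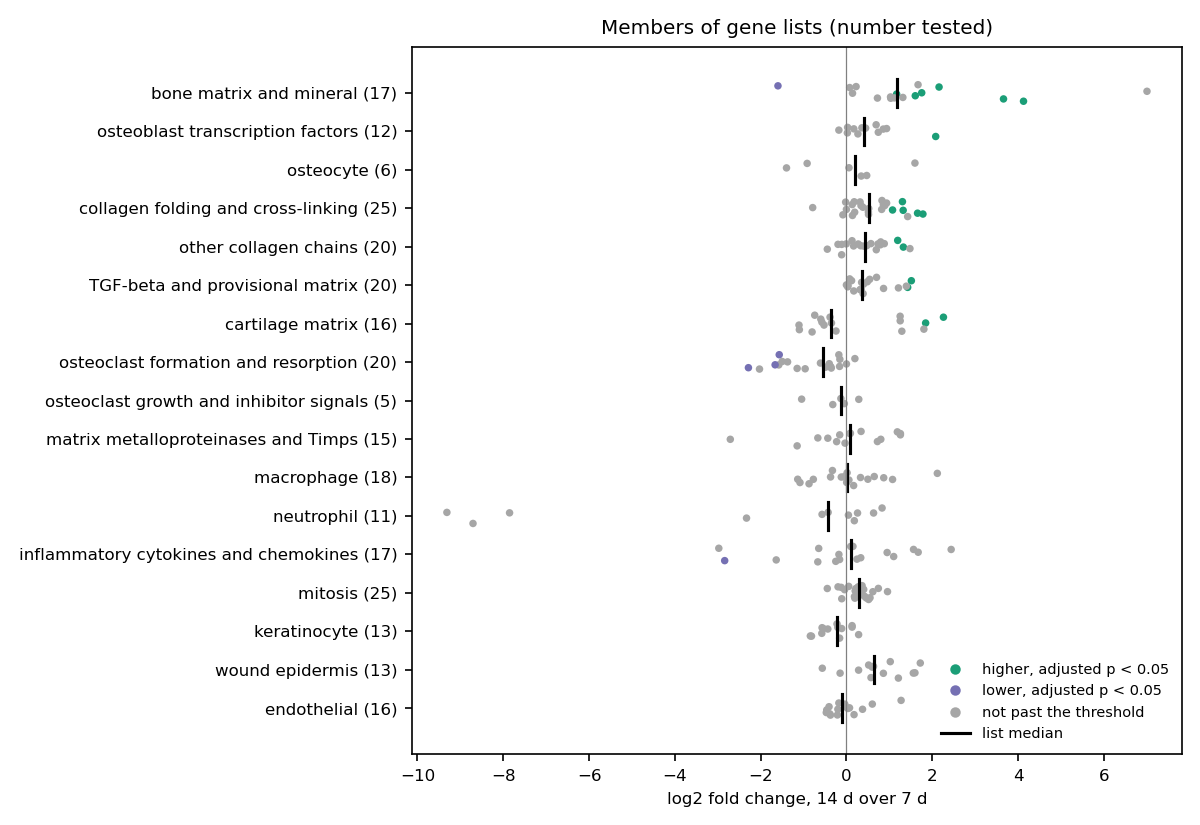
Log2 fold change of 14 d over 7 d for each tested member of 17 gene lists, with the number tested in brackets and the list median as a black bar. Green points rose, violet points fell and grey points did not pass, and the bone matrix list sits furthest to the right among the lists with calls.

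No gene passed a test of whether the difference between 14 d and 7 d depended on the campaign, with 1704 of 13058 genes at an unadjusted p under 0.05 (edgeR), 461 called by DESeq2 and 346 called without 7 d replicate 3. As values, the difference was larger in the earlier campaign for 9 of the 11 lower genes and larger in the later one for 4 of the 5 collagen folding genes (not Fkbp10) and all 4 Lce genes. With only 1 mouse at 14 d in the earlier campaign, its replicate error is borrowed from the other mice.

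**Figure D5:**
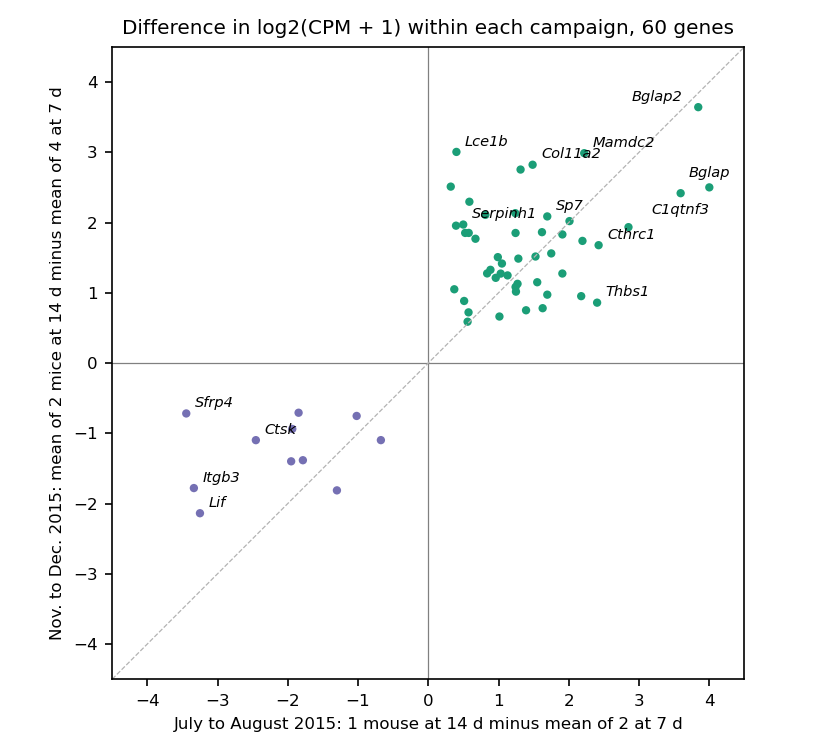
Difference in mean log2(CPM + 1) between 14 d and 7 d within the July 2015 mice (horizontal) and within the November and December 2015 mice (vertical) for the 60 genes, with the line of equality dashed. All 49 higher genes lie above and to the right of 0 and all 11 lower genes below and to the left. For genes whose 14 d and 7 d mice do not overlap, this placing follows from the lack of overlap.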

How the data were processed

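Poly(A) RNA was sequenced by the authors as single-end reads of 65 bases (CASAVA 1.8.2, per the submitters' processing notes), mapped to Ensembl v75 mouse transcripts (mm10) with Bowtie 0.12.8, and quantified with RSEM 1.2.3. The deposited expected counts are not normalized (78.1% are whole), and the deposited TPM are relative to all genes of a mouse. The deposited table of averages was not used. Shared read-length stretches were counted in GENCODE transcripts, not in the Ensembl v75 transcripts used for mapping.

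Expected counts were rounded and tested with edgeR 4.0.16 in R 4.3.3: TMM, the filter for low counts by time point, and a quasi-likelihood fit of all 30 mice by time without covariates (21 residual degrees of freedom), Benjamini-Hochberg adjusted at 0.05. Tested genes hold 99.9% of counts. P-values of this fit rest on the spread between mice of the same time, estimated over all 30 mice. Differences between campaigns are part of that spread. Alternatives were DESeq2 1.42.0, limma 3.58.1 on TPM, other filters, scalings, covariates and subsets. Scripts were tested on simulated data. Named genes are up to 12 with the largest change in each direction (adjusted p under 0.05, mean of at least 5 CPM, no overlap), which gave 12 higher and 10 lower, and members of 34 gene lists. Further genes were named after their values were seen. The comparison and the lists were chosen with earlier results of these data known. No 2 mice looked like 1 library (chi-square per degree of freedom 11.6 to 93.0 over 18 pairs).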

Additional observations from a re-analysis of the deposited data

Results flagged for a closer look

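Beyond 3 mice per group, which the 7 d mice alone offer, each of 96 measures was searched for 1 mouse standing off from its 5 companions. The distance to the closest companion was divided by the span of all 6 and set against Dixon's limit of 0.625. Chance would yield 4.8 such cases (1 in 20), and 8 were found. The left-foot 7 d replicate 3 was the mouse standing off in 4 cases, lowest each time: the number of genes with a count (0.662), Otub2 (0.631), Lce1l (0.628) and the mean of the osteoblast transcription factor list (0.737). After all libraries were thinned to equal depth it still had a count in 12102 genes, against 13825 to 14462 in the other 7 d mice. The other 4 cases were Cthrc1, lowest in replicate 2 (0.79), Lce1d, highest in replicate 1 (0.635), the neutrophil list, highest in replicate 1 (0.757), and the list of cytokines and chemokines, highest in replicate 5 (0.798). For Cthrc1, Otub2 and Lce1l, which rose at 14 d, that mouse was further from the 14 d mice than the other 7 d mice were. For Lce1d it was nearer to them.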

How the results depend on the processing

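All 60 genes kept their direction in all 22 alternatives (1320 values, 896 past the threshold and 424 not). The 60 were called on these same mice, most without overlap between the groups, so their kept direction is no separate support. The count of 60 (49 higher, 11 lower) became 15 (13, 2) with the 9 mice alone, 274 (182, 92) with campaign as a covariate, 1104 (556, 548) within the later and 29 (8, 21) within the earlier campaign, 35 (16, 19) without left-foot mice, 183 (99, 84) with DESeq2, 26 (18, 8) with limma on log2(TPM + 0.1), where the median of all genes moved to 0.116, and 21 (18, 3) at a threshold of 0.01. A stricter filter gave 17 lower genes. With 1 mouse left out it ran from 21 to 160 (16 to 94 higher, 3 to 69 lower). The 2 alternatives added after seeing the data were thinning to equal depth, which gave 62 genes (55 of the 60), and the 9 mice with campaign as a covariate, which gave 61 (36 of the 60). The 3 osteoclast genes became 2 with the 9 mice alone, 4 with campaign as a covariate and without left-foot mice, 5 within the later campaign, and 2 to 3 with 1 mouse left out. The 6 higher bone matrix genes became 3 with the 9 mice alone, 11 with campaign as a covariate and within the later campaign, 0 within the earlier one, 3 with limma on log2(TPM + 0.1) and 3 at 0.01, and 2 to 9 with 1 mouse left out. The 5 higher collagen folding genes became, in the same order, 1, 9, 9, 0, 0 and 1, further 1 without left-foot mice and 2 with limma on log2(TPM + 1), and 0 to 6 with 1 mouse left out. The 0 genes that depend on campaign became 461 with DESeq2, 76 without a filter, and 0 to 346 with 1 mouse left out. Reversed were genes that had not passed: Car2 (1.35 within the earlier campaign, 0.041 without left-foot mice), Tnfsf11 (0.26 within the later), Tnfrsf11b (-1.61 within the earlier, -0.18 without left-foot mice, and from -0.25 to 0.69 with 1 mouse left out, negative without 14 d replicate 3) and Dmp1 (-0.40 within the earlier). The cause was not tested. No paired analysis was possible because each library came from a different mouse. Depth limits genes with few counts, such as Ifitm5 and the osteocalcins.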
